A study of Drosophila melanogaster with 2 samples.

Results

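The 10 genes brm, trx, mor, osa, Snr1, ash1, ash2, tara, Trl and kis belong to the trithorax group of Drosophila melanogaster. They were taken by name from the dm6 gene annotation, which holds 13968 protein-coding genes. Each received every peak whose summit lay in the gene or within 1 kb of it. In the pooled peak set 15 of 3551 peaks on the chromosome arms met this rule, and they lay at 7 of the 10 genes.

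Chromatin immunoprecipitation with sequencing (ChIP-seq) was carried out with an antibody to green fluorescent protein on whole embryos aged 0 to 24 h, in which the protein of CG4730 carried an eGFP tag. The strain was named CG4730-GFP, and a transgene supplied the fusion protein. There was 1 group with 2 biological replicates, so the values below describe where peaks lay and how far the replicates differed. A peak averages over all cells of the embryo, and the control library and the read depth were not analysed here.

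Trithorax group proteins keep developmental genes, the homeotic genes foremost, in the active state that earlier regulators set, and they counter the Polycomb group. Some are subunits of nucleosome remodelling complexes, some methylate histone H3, and some bind specific DNA sequences or link to other regulators. Here the question is not where these proteins bind, but whether the CG4730 protein was found at the genes that encode them.

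The sequence windows below reach 50 bp to each side of the summit and are shown because they hold the 5 member peaks among the 100 strongest of the pooled set, followed by the strongest peaks of tara and trx, which passed the reproducibility rate but were missing from the thresholded set. They are on dm6, plus strand, and were read from the RefSeq genome. Capitals mark matches on either strand to GAGAG (the GAGA element, bound by the protein of Trl), TATAAA (the TATA box), TAATTA (a homeodomain core) or TATATTAA. The sequences ATCGAT (the core of the DNA replication-related element) and AGATGGCG were also searched. ATCGAT, AGATGGCG and TATATTAA were in none of the 15 kept windows, beside 3.91%, 1.21% and 3.86% of all 3551 pooled windows. AGATGGCG and TATATTAA were taken from an earlier analysis of these same data.
ash1, chr3L:19590571-19590671: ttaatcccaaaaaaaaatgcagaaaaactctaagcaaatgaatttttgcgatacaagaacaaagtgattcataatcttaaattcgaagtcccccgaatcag
Trl, chr3L:14759451-14759551: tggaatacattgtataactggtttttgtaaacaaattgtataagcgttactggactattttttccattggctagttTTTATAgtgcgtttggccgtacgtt
brm, chr3L:15982961-15983061: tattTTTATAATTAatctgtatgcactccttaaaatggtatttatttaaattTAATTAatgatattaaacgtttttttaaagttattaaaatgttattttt
osa, first peak, chr3R:17704360-17704460: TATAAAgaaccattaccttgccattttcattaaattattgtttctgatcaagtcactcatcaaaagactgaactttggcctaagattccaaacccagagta
osa, second peak, chr3R:17700522-17700622: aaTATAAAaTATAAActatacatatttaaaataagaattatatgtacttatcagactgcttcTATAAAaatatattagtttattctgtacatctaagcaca
tara, left-out peak, chr3R:16236901-16237001: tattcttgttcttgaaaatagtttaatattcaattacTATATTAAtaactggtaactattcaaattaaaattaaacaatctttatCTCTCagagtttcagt
trx, left-out peak, chr3R:14283840-14283940: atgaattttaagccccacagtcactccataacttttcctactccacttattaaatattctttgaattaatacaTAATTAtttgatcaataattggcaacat

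Of the 15 kept windows 8 held TATAAA, at Trl, brm, kis, osa and trx, beside 21.6% of all 3551 pooled windows and 35 of those at the 100 strongest peaks. In the brm window 1 TATAAA match overlapped a TAATTA match. TAATTA was in 4 of the 15, at Trl, brm and kis, beside 10.3% of all windows. The GAGA sequence was in 1 of the 15, at kis, and in 8.11% of all windows. These matches are descriptions of the letters in the windows, and whether any protein bound them was not tested.

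The kept windows were made up of A or T to between 55.4% and 86.1%, with a median of 68.3%. The median over all pooled peaks was 67.3%, with quartiles of 59.4% and 73.3%. The brm promoter window was the most AT-rich of the members at 86.1%, followed by the second osa window at 81.2%. The 5 strong member windows had a median of 68.3%, beside 72.3% for the 100 strongest peaks of the set. The members thus spread to both sides of the median of the set.

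**Figure D1:**
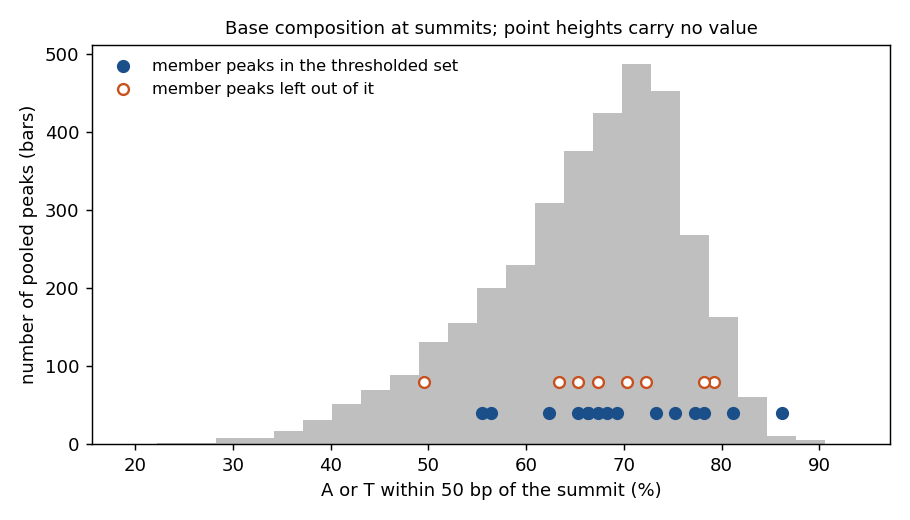
Share of A or T within 50 bp of the summit, in percent, for all 3551 pooled peaks on the arms (grey bars, number of peaks), for the 15 member peaks (blue) and for the 8 that were left out of the thresholded set (open). Member peaks run from 55.4% to 86.1%, and the left-out ones from 49.5% to 79.2%.

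A pooled peak was found at 7 of the 10 genes, namely brm, osa, trx, ash1, Trl, tara and kis. Among all 13968 coding genes 22.7% had one by the same rule. Long genes offer more room for a summit, and the members were long: 7 were 5 kb or longer, and those 7 were the genes with a peak. Of coding genes between 5 and 15 kb 32.3% had a peak, and of genes of 15 kb or longer 51.3%, beside 3 of 3 and 4 of 4 members. Of genes shorter than 5 kb 17.1% had one, beside 0 of 3 members (mor, Snr1 and ash2). The length classes were chosen after the values had been seen, and with members picked with earlier results known no test of these counts was made.

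**Figure D2:**
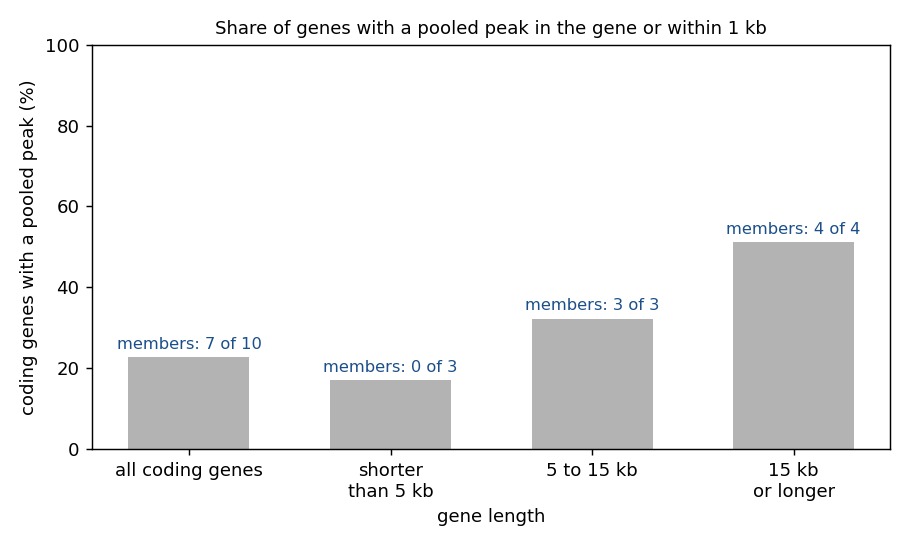
Share of coding genes with a pooled peak in the gene or within 1 kb (bars, percent), for all genes and by gene length, with the members counted above each bar. The share rises from 17.1% below 5 kb to 51.3% at 15 kb or longer, while 0 of 3, 3 of 3 and 4 of 4 members had a peak.

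Several members held more than 1 peak. At least 2 pooled peaks lay at brm, osa, Trl, tara and kis, which are 5 of the 10 genes, beside 5.56% of all coding genes and 16.4% of those of 5 kb or longer. Trl alone held 4, a number reached by 0.845% of coding genes. A peak of the 100 strongest lay at ash1, Trl, brm and osa, and at 1.09% of coding genes. All 4 were 5 kb or longer, as were 7 members, and of coding genes of that length 1.83% had one. Only brm and Trl had a summit within 500 bp of one of their own transcription starts, 2 of 10 genes beside 13.7% of coding genes. Both belong to the class of 5 to 15 kb, where 2 of 3 members and 17.8% of coding genes had such a peak. The shares were 12.3% below 5 kb and 18.1% at 15 kb or longer, beside 0 of 3 and 0 of 4 members.

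The same 7 genes had a peak in each replicate's own set. Of all coding genes 16.6% had one in replicate 1, 17.4% in replicate 2 and 14% in both. By pooled signal the 15 peaks had a median of 199, beside 108 over all pooled peaks on the arms, and 8 of the 15 (53.3%) were among the 1000 strongest, beside 28.1% of all. They fell into a strong set of 5, from 622 to 2034, and a set of 10 from 81.2 to 203, with none between. In the whole pooled set only the peaks of rank 87 to 679 lay in that gap. The split is thus a description of these 15 peaks, made after their values had been seen.

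**Figure D3:**
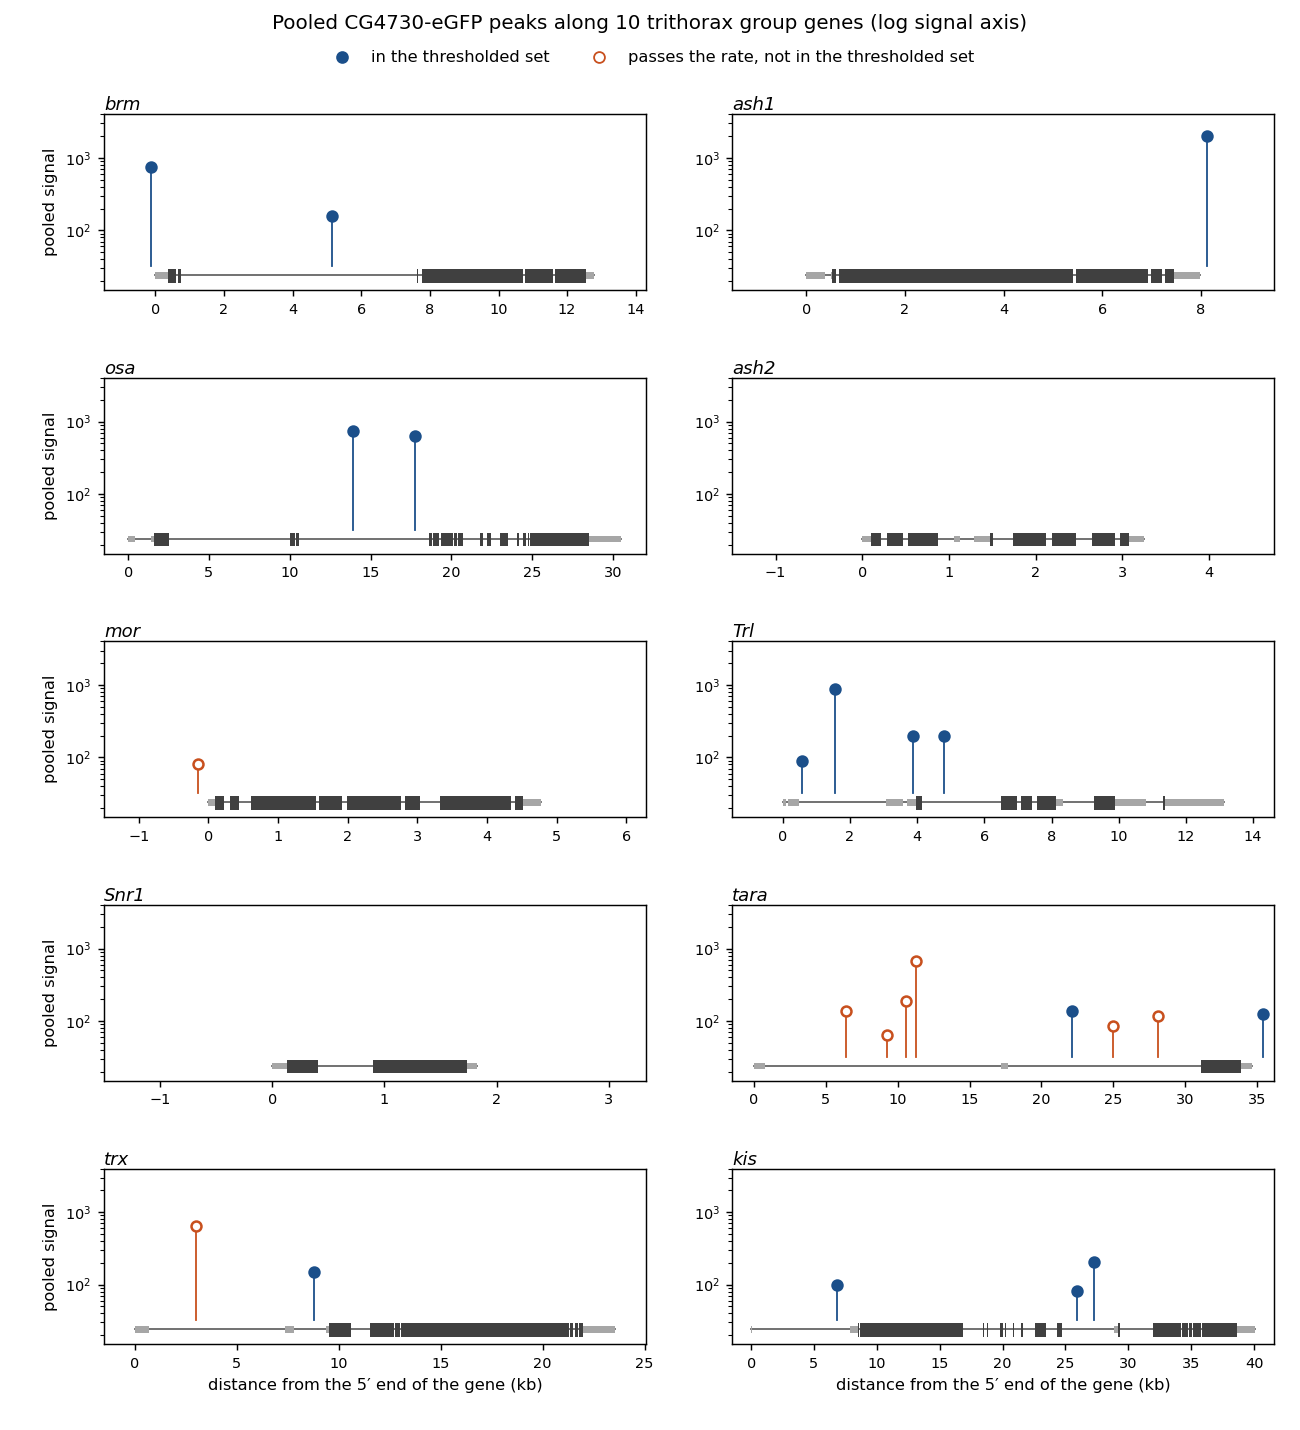
Pooled peaks along the 10 genes, drawn from the 5′ end of each gene in kb, with dark blocks for coding exons and light blocks for other exons. Each stem is a summit and its height the authors' pooled signal on a log axis. Filled points are in the thresholded set, open points passed the reproducibility rate but are missing from it. Open points stand at trx, mor and tara, and no point at Snr1 or ash2.

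Signal values are the authors' own, and their unit was not stated. They rank and describe peaks within a list. The pooled signal came close to the sum of the values in the replicates' own lists, between 0.876 and 1.05 times that sum over the 15 peaks. Reproducibility was given as the negative log10 of the irreproducible discovery rate, capped at 5, where 2 stands for a rate of 0.01. All values with ± are means and SDs over the 2 replicates.

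The subunits of the Brahma remodelling complexes came out differently from each other. The gene brm (FBgn0000212, chr3L:15970082-15982869, minus strand) encodes the ATPase of these complexes. Its main peak (chr3L:15982868-15983137) had a pooled signal of 762 and rank 48. It measured 381.1 in replicate 1 and 381.3 in replicate 2, the closest pair of values among the 15 peaks. The summits in the replicates lay 4 bp apart.

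That summit lay 142 bp upstream of the brm start and 124 bp upstream of the start of Arl1, a gene for a small GTPase that is transcribed the other way. The peak therefore sits between the starts of both genes and cannot be given to either. A weaker peak (chr3L:15977568-15977907) lay in a brm intron, 5131 bp into the gene, within the nested gene CG17029. Its values were 77.2 and 80.1, a mean of 78.7 ± 2.06 (SD, n = 2), at rank 1009.

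The gene osa (FBgn0261885, chr3R:17687818-17718350, minus strand) encodes the subunit that sets the BAP form of the complex apart. It held a pair of strong peaks 3838 bp apart in the same intron, far from its only annotated start. The first (chr3R:17704296-17704547) measured 352 and 377 in replicates 1 and 2, 365 ± 17.1 (SD, n = 2), at rank 57 and 13940 bp into the gene. The second (chr3R:17700436-17700712) measured 309.8 and 305, 307 ± 3.29 (SD, n = 2), at rank 86 and 17778 bp into the gene.

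Neither osa peak had a start of another coding gene nearby. The first lay in an exon of the long noncoding RNA gene lncRNA:CR46035, 715 bp downstream of its start, and the second 169 bp upstream of the start of lncRNA:CR46036. The noncoding genes lie inside osa, so peaks of osa and peaks of these genes are the same peaks. Both replicates ranked the osa peaks among their first 100.

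The other subunit genes had no thresholded peak in the pooled set or in either replicate. The gene mor (FBgn0002783, chr3R:15968134-15972913) encodes a scaffold subunit, and Snr1 (FBgn0011715, chr3R:5470926-5472754) a core subunit. At Snr1 the strongest entry of the pooled ranked list had a signal of 48.3, rank 8986 and a reproducibility value of 0.31. Its strongest entries in the replicates were 23.7 and 18.1. The mor promoter had a weak entry that is described with the left-out peaks below.

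Among the genes for histone methyltransferases, ash1 stood next to the second strongest peak of the whole set. The gene ash1 (FBgn0005386, chr3L:19590773-19598755, minus strand) encodes an enzyme that methylates histone H3. The peak (chr3L:19590462-19590788) had a pooled signal of 2034 and measured 1049.6 in replicate 1 and 996 in replicate 2, 1023 ± 38.2 (SD, n = 2). It held rank 2 in the ranked list of replicate 1 and rank 3 in that of replicate 2.

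The position of this peak puts it at the end of ash1, not at its start. The summit lay 152 bp past the 3′ end of ash1 and 8134 bp from its only start, and 97 bp upstream of the start of CG14100. It counts for ash1 by the 1 kb rule alone and drops out when summits must lie in the gene itself. Within ash1 no thresholded peak was found, and the entry nearest to the rate had a signal of 48.7 and a reproducibility value of 0.90.

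By pooled signal the ash1 peak had only the peak near Ugalt above it, at 2235. Below it came those near CG7601 at 1834, CG11050 at 1791 and mRpL41 at 1740. In replicate 1 these 4 neighbours measured 1124, 919, 908 and 868, and in replicate 2 they measured 1121, 929, 878 and 883. Values of 1049.6 and 996 at ash1 lay above those of the 3 peaks below it in both replicates. This likeness is one of signal rank alone.

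**Figure D4:**
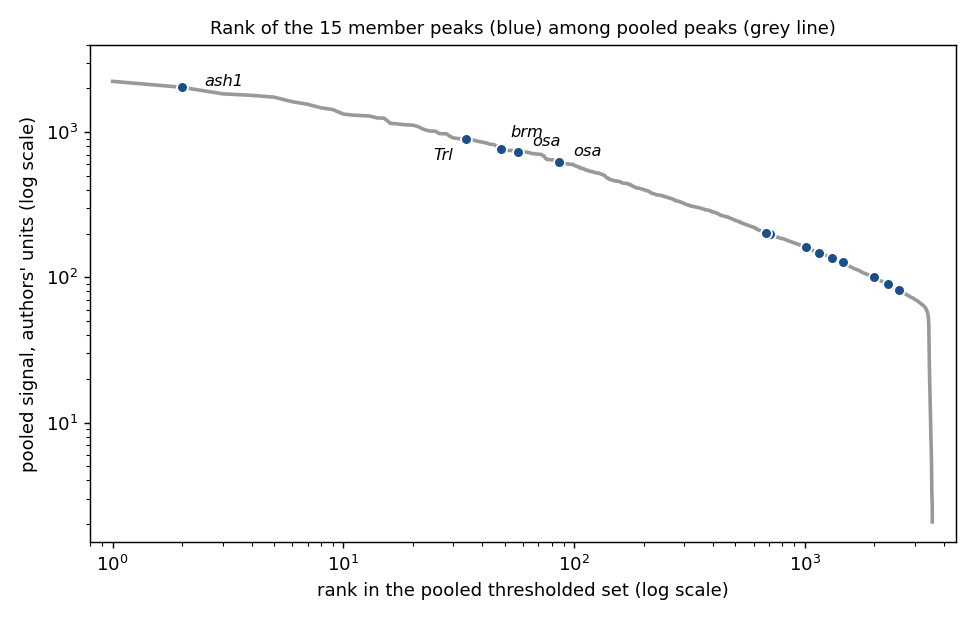
Pooled signal against rank for the pooled peaks (grey line, both axes on log scales), with the 15 member peaks as blue points. The ash1 peak stands at rank 2 with 2034, Trl at 895, brm at 762 and osa at 735 and 622, and the other 10 lie between 81.2 and 203.

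The gene trx (FBgn0003862, chr3R:14263358-14286903, minus strand) encodes the methyltransferase after which the group is named. Its thresholded peak (chr3R:14277943-14278282) lay in an intron 8790 bp from the only start. It measured 68.7 and 84.8, 76.8 ± 11.3 (SD, n = 2), at rank 1147. The gene ash2 (FBgn0000139, chr3R:24650125-24653376) encodes a shared subunit of methyltransferase complexes. It had no thresholded peak, and its strongest ranked entry reached a pooled signal of 35.0, with 16.3 and 28.0 as the highest values in the replicates.

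The gene Trl (FBgn0013263, chr3L:14747929-14761049, minus strand) encodes the GAGA factor, which binds GA-rich DNA at many promoters. All 4 of its peaks lay within 4809 bp of its 5′ end, with 939, 2322 and 977 bp between neighbours. The strongest (chr3L:14759350-14759669) measured 452 and 445, 448 ± 4.96 (SD, n = 2), at rank 34. It lay in an intron, 1548 bp into the gene and 1539 bp upstream of the nearest of its other annotated starts.

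The other peaks of Trl were weaker. One (chr3L:14757009-14757348) lay in the 5′ UTR, 157 bp downstream of a Trl start, with 106 and 93.8 in the replicates. A second (chr3L:14756070-14756409), 1096 bp downstream of a Trl start, measured 121 in replicate 1 and 73.1 in replicate 2, an SD of 34.7% of the mean and the widest spread among the 15. The third (chr3L:14760308-14760647), 571 bp into the gene, had 49.4 and 36.1 and was in the own set of replicate 1 alone. The first and second of these also lie within CG42507, which overlaps Trl. So 4 Trl peaks were called in replicate 1 and 3 in replicate 2. None of the 4 windows held GAGAG, which says only that these letters were not within 50 bp of the summits.

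The gene kis (FBgn0266557, chr2L:210735-250823, minus strand) encodes a chromodomain remodelling ATPase and is the longest of the members at 40.1 kb. Its strongest peak (chr2L:223355-223694) measured 97.4 and 101.3, 99.4 ± 2.73 (SD, n = 2), at rank 680. This summit lay in a kis intron and 6 bp downstream of the start of lncRNA:CR44222. A second peak (chr2L:224717-225056) followed 1362 bp away with 55.1 and 37.6. The remaining one (chr2L:243816-244155), 845 bp upstream of mir-965, had 57.4 and 45.3.

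Both weaker kis peaks were in the own set of replicate 1 and not in that of replicate 2, where their reproducibility values were 1.72 and 1.80. The number of kis peaks was therefore 3 in the pooled set and in replicate 1, and 1 in replicate 2. In the conservative pooled set it was 4.

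The gene tara (FBgn0040071, chr3R:16225651-16260329, plus strand) encodes a protein that links the trithorax group to cell cycle control. Its thresholded peaks were moderate. One (chr3R:16247637-16247976), in an intron 4991 bp from the nearest start, measured 75.2 and 79.4, 77.3 ± 2.95 (SD, n = 2). The other (chr3R:16260874-16261213) lay 715 bp past the 3′ end of the gene and measured 71.9 and 52.9, 62.4 ± 13.4 (SD, n = 2).

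The ranked lists held 8 further pooled peaks at these genes that passed the rate of 0.01 but are missing from the thresholded set. Of these 6 lay at tara, 1 at trx and 1 at mor, all on arm 3R. A left-out peak was found at 3 of the 10 members, beside 0.537% of all coding genes. On 3R it was 3 of 6 members, beside 1.52% of the coding genes there. For left-out peaks no share among genes of like length was drawn up, and tara and trx are long, at 34.7 and 23.5 kb. Of all 112 left-out pooled peaks 84 lay on the arms. Of these 84, 52 lay on 3R, and the share of kept peaks on 3R was not drawn up. The 8 at the members were all among the 52. They were 9.52% of the 84 and 15.4% of those on 3R, whereas the members held 0.422% of the kept ones on the arms. No other coding gene had as many as the 6 of tara.

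The strongest of them lay between the weakest 2 of the 5 strong kept peaks, at 735 and 622. At tara the peak chr3R:16236808-16237077 had a pooled signal of 666 and measured 339 and 321, 330.02 ± 12.9 (SD, n = 2). At trx the peak chr3R:14283761-14284009 had 653 and measured 339 and 318, 328 ± 15.04 (SD, n = 2). They held ranks 79 and 81 of the pooled ranked list, both with the capped value of 5, and the second osa peak had rank 92 in that list. Both lay in introns, 5865 bp upstream of the nearest tara start and 3013 bp downstream of the trx start.

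Both peaks were also in the ranked lists of each replicate, at ranks 79 and 84 for tara and 80 and 88 for trx, and in neither replicate's thresholded set. With the left-out peaks counted, 6 of the 10 members had a peak among the 100 strongest, beside 1.08% of coding genes. Any peak that passed the rate was then found at 8 of the 10, beside 23.1% of coding genes. The 6 genes were all 5 kb or longer, and for neither count was a share among genes of that length drawn up. The thresholded peak of trx, at 148, was far below its strongest ranked one, at 653, and the order of the members by signal changes with the list that is read.

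The other left-out peaks of tara spanned the gene on both sides of a kept one. Their pooled signals were 187, 138, 117, 84.3 and 63.1. The kept intron peak at 136 lay between them, and why the others are missing was not tested. In the replicates the first of these left-out peaks measured 106 and 63.4, and the last 27.6 and 32.2. The peaks at 84.3 and 63.1 passed the rate in the pooled list but fell below 2 in both replicates. Their reproducibility values there were 0.69 and 1.75 for the peak at 84.3, and 0.49 and 1.64 for the peak at 63.1. The peak at 63.1 also failed the rate in the conservative list, at 1.65.

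The left-out entry of mor (chr3R:15972900-15973239) lay between the starts of mor, 157 bp away, and Hel89B, a helicase gene. Its pooled signal was 81.1, but the replicates differed, with 56.4 in replicate 1 and 24.998 in replicate 2. It passed the rate in the pooled list at 2.63 and failed it in the conservative list at 1.34. At ash2 and Snr1 no left-out peak was found.

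Kept and left-out peaks overlapped in their share of repeat-masked bases and of A or T. Repeat-masked bases made up 6.18% to 40.7% of the kept peaks and 0% to 30.9% of the left-out ones. A or T ran from 49.5% to 79.2% in the left-out windows. The deposited file list names a further parent file for the thresholded sets that it does not name for the ranked lists. The sources used here do not say what it holds, and its part in the missing peaks was not tested.

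Replicate spread was narrower in the median at the strong member peaks, at 1.11% of the mean beside 15.8% for the weaker ones. The ranges overlapped, and a dependence of spread on signal was not tested. The 5 member peaks among the 100 strongest had SDs of 0.037% to 4.68% of their means, and the other 10 had 2.61% to 34.7%. All 12 peaks called in both replicates included these 5. Over all pooled peaks 49.1% overlapped a thresholded peak in both replicates, beside 12 of the 15. Signals were higher in replicate 1 for 9 of the 15, and Spearman's correlation between the replicates was 0.918 across the 15 peaks, which share libraries and are not independent.

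**Figure D5:**
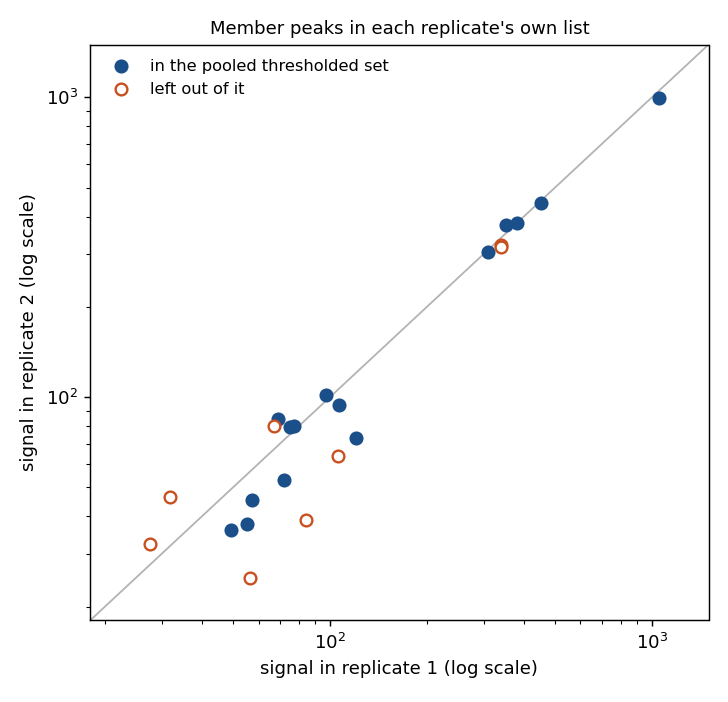
Signal of each member peak in replicate 1 and replicate 2 (log axes), read from the replicates' own ranked lists, with the line of equal values. The 5 strong kept peaks lie close to the line, with SDs of up to 4.68% of the mean, and the weaker ones scatter around it, by up to 34.7% (kept) and 54.5% (left out).

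Peak width also differed between the strong and the weaker member peaks. All 10 weaker member peaks were 340 bp wide, the most common width, which 82.0% of all pooled peaks on the arms share. Their summit is the midpoint of that interval. The 5 strong ones were 252 to 327 bp wide, and their summits shifted by 4 to 16 bp between the replicates, against 0 to 60 bp for the weaker ones.

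By position, 5 of the 15 summits lay within 500 bp of the start of any gene, 8 in introns, 1 in a noncoding exon and 1 between genes. Over all pooled peaks 43.5% lay near a start and 37.96% in introns. None of the 15 lay in a coding exon, where 1.44% of all pooled peaks lay. Of the 5 near a start, those at ash1, osa and kis were near the start of another gene, that of brm was near its own start and that of Arl1, and that of Trl near its own start alone.

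Values close to the limits of the rule were as follows. The weakest left-out peak to pass the rate, at tara, had a reproducibility value of 2.34 and a signal of 63.1. Just short of it lay entries at kis with 1.90 and 61.4 and at trx with 1.87 and 77.1. The farthest summit inside the 1 kb limit was that 715 bp past tara. Next outside lay a peak 1961 bp from trx with signal 90.8, nearest to red, and one 3153 bp from tara with signal 1289, nearest to lncRNA:CR45643.

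Further genes of the group and of its complexes were read from a list that was drawn up with earlier results known. Of 40 names 39 were matched, and 14 of them (35.9%) had a pooled peak in the gene or within 1 kb, beside 22.7% of coding genes. With summits in the gene body alone 7 had one, and with a flank of 5 kb 22. By length a peak was found at 5 of 16 genes shorter than 5 kb, 3 of 15 between 5 and 15 kb and 6 of 8 of 15 kb or longer, beside 17.1%, 32.3% and 51.3% of coding genes. Within 500 bp of a start of their own 11 had one, beside 13.7%. By complex the counts were 2 of 10 for the Brahma complexes, 3 of 11 for the methyltransferase complexes around Set1 and trr, 0 of 2 for partners of ash1 and 9 of 16 for other group genes and coactivators. None of the 39 had a left-out peak.

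The strongest of these peaks stayed below those of the 4 leading members. At mod(mdg4), which encodes a family of chromatin proteins, the strongest peak measured 158 in each replicate, 158 ± 0.367 (SD, n = 2). At nej, the gene of the CBP acetyltransferase, it measured 156 and 123, 139 ± 23.8 (SD, n = 2), and at the actin gene Act5C 129 and 148, 139 ± 13.3 (SD, n = 2). The summits at nej and Act5C lay outside these genes. The nearest starts were those of lncRNA:CR42657, 360 bp from the nej summit, and lncRNA:CR45668, 228 bp from the Act5C summit. Chd1, a chromodomain remodeller gene, had 107 and 118. Its summit also lay outside the gene, 108 bp from the start of Bem46.

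Rbbp5, a subunit gene of the methyltransferase complexes, had 86.9 and 82.1. The summit lay outside Rbbp5, 100 bp from the start of eRF1. At psq, a gene for a GAGA-binding protein, the strongest of 4 peaks had 60.7 and 72.5. The Mediator gene skd had 69.0 in replicate 2 and no matching entry in the ranked list of replicate 1. The last of the 8 strongest, sktl, a lipid kinase gene, had 63.1 and 62.2. The skd summit lay outside skd, and the start nearest to it was that of Pdss2, at 52 bp. At mod(mdg4) the nearest start was that of pre-mod(mdg4)-E, at 70 bp.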

How the data were processed

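Peak lists from both biological replicates of CG4730-eGFP embryos were used, on dm6 per the labels. Each replicate and the pooled pair have a ranked list and a set thresholded on the irreproducible discovery rate, with a conservative pair besides. Signal is the value per peak that the authors deposited, with no unit stated. In the ranked lists the authors deposited −log10 of the global rate. The sources used here name no peak caller or aligner and no read depth, so no counting interval is given. The 16 unnamed columns of the pooled ranked lists were left aside. Which of these lists belongs to which thresholded set was read from the peaks they hold.

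Genes came from Ensembl's annotation of the assembly and sequence from RefSeq. A pooled peak took its replicate values from the overlapping entry with the nearest summit, with 1 bp or more shared. A peak counted as left out when its −log10 rate was 2 or more and the thresholded file lacked it. Gene counting was tested on simulated data, in Python 3.11.15 with pandas 2.3.3, numpy 2.4.6 and scipy 1.17.1. Alternatives were other sets, flanks, promoters, overlaps and thresholds. The members and lists were chosen with earlier results of these data known. Named are the members, the 8 further group genes with the strongest peaks, genes with a start within 500 bp of a member summit or overlapping it, and the genes nearest to the peaks up to 3 ranks above and below the strongest member peak. Other genes, such as mir-965, red and lncRNA:CR45643, were named after their values had been seen.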

Additional observations from a re-analysis of the deposited data

How the results depend on the processing

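The number of members with a peak ran from 6 to 8 under 11 alternatives. It was 6 with summits in the gene body alone, where ash1 was lost, and 8 with left-out peaks restored, where mor was gained. The number of member peaks was 15. It fell to 12 with the gene body alone and to 12 when replicate 1 was left out. It rose to 18 with a flank of 5 kb and to 23 with left-out peaks restored. Among entries that passed the rate in the single replicates' ranked lists, an alternative chosen after seeing the data, it was 21 and 19. Of the further group genes 14 had a peak, 7 with the gene body alone and 22 with a flank of 5 kb. A promoter peak was found at 2 members with 500 bp and at 0 with 100 bp. The 8 left-out peaks became 5 with a threshold of 3 and 12 with one of 1.3. The strongest member peak, at 18.9 times the median signal of its set, stood at 17.8 times in the conservative set and at 13.7 to 14.1 times when 1 replicate was left out. The cause of these shifts was not tested, beyond the peaks that each rule adds or removes. The A or T median was 68.3% and, with 100 bp to each side, 62.7%. No paired analysis was possible because the design has 1 group. Without read depth, weak entries at Snr1 and ash2 cannot be told from background.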
